A study of Mus musculus with 16 samples.

Results

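Transcription factors that set up macrophage identity or tune it to a tissue were followed in 4 macrophage populations. The 9 factors were Spi1, Cebpa, Cebpb, Maf, Irf8, Spic, Nfe2, Nr1h3 and Bhlhe40, chosen by gene symbol, and all 9 had a row among the 24981 genes of the deposited table. The populations were macrophages sorted from pericardial, pleural and peritoneal lavage and from the heart of C57BL/6 mice at 8 weeks of age, with no treatment or altered gene, and with 4 libraries each. Libraries carry the numbers 2 to 5, and the labels do not say that each came from its own animal, so p-values measure the spread between these libraries. The labels give no sort gate and do not say how heart tissue was taken apart.

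Spi1 encodes PU.1, the ETS protein that opens myeloid enhancers, and Cebpa and Cebpb encode bZIP proteins that bind beside it. Irf8 encodes a partner of PU.1 at composite sites, Maf encodes c-Maf, which restrains macrophage self-renewal, and Spic encodes an ETS relative of PU.1 that is needed by splenic red pulp macrophages and is induced by heme. Nfe2 encodes the p45 subunit of the factor that pairs with small Maf proteins in megakaryocytes, Nr1h3 encodes the oxysterol receptor LXRα, and Bhlhe40 encodes a repressor that resident peritoneal macrophages need in order to proliferate. Large macrophages of serous cavities are known to depend on Gata6, and C/EBPβ is known to be needed for their maturation.

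Libraries held 40886702 to 70166356 alignments, and levels were given as RPKM, which sets reads against transcript length and the reads of the library, so that levels of different genes may be compared per length. The 6 large cavity macrophage markers summed to 4233 to 5490 RPKM in pericardial, 3691 to 5172 in pleural, 3224 to 4979 in peritoneal and 59.8 to 82.0 in heart libraries. The 5 resident cardiac macrophage markers summed to 18.7 to 82.9 RPKM over the cavity libraries and to 888 to 1317 RPKM in heart libraries. The 12 immediate early genes, which respond to handling of cells, summed to 202 to 776 RPKM in cavity libraries against 7754 to 12062 RPKM in heart libraries, and all 12 were lower in each cavity than in the heart. Summed levels of 6 cardiomyocyte markers were at most 0.864 RPKM in cavity libraries and 209.8 to 433 RPKM in heart libraries, those of 5 fibroblast markers at most 0.596 and 52.7 to 239 RPKM. The part of handling and of such RNA in the differences between cavity and heart was not tested. Fewer cells that express a gene and less RNA of it per cell cannot be told apart in bulk RNA. The sum of all RPKM values in a library ranged from 272981 to 482872 in the cavities and from 227397 to 336952 in the heart, and the median log2 fold of all tested genes was 0.45 for pericardial, 0.36 for pleural and 0.38 for peritoneal against heart macrophages.

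Cavity macrophages carried far more Nfe2 and Bhlhe40 and more Cebpb than heart macrophages, and far less Spic and Maf and less Irf8. Spi1 and Cebpa were abundant in all 4 populations, and Nr1h3 was low in all 4. Against the heart, 7 of the 9 factors were called at an adjusted p under 0.05 in pericardial macrophages, 6 in pleural and 6 in peritoneal macrophages, each tested with limma on log2 of RPKM + 0.5 over 11234 genes. Of all tested genes, 68.5% were called in the pericardial, 61.7% in the pleural and 62.9% in the peritoneal comparison, so the share of factors called is near the background. By direction, 4 factors were higher and 3 lower in pericardial macrophages (53.8% and 14.7% of all tested genes), 3 and 3 in pleural (47.8% and 13.9%), and 3 and 3 in peritoneal macrophages (48.8% and 14.1%). Groups did not overlap for 6 factors in the pericardial, 6 in the pleural and 5 in the peritoneal comparison, against 55.7%, 58% and 42.3% of all tested genes. Cebpb, Nfe2 and Bhlhe40 were higher in all 3 cavities, which held for 42.1% of all tested genes. Maf, Irf8 and Spic were lower in all 3 cavities, which held for 11.8% of all tested genes. The 3 comparisons share the 4 heart libraries. The filter asked for 1 RPKM in 4 libraries, which Spic passed through its 4 heart libraries alone and Nfe2 through the 12 cavity libraries alone, so both had to differ between cavity and heart once they were tested; the other 7 factors reached 1 RPKM in all 16 libraries. Among other genes named or counted here, Spib and Arg1 were under 1 RPKM in every heart library, and Maff, Slc40a1, Vcam1, Ppbp, Il10, Pparg and Egr2 in every cavity library, so their direction against the heart was fixed in the same way. Tiam2, named below as like Nfe2, averaged 0.195 RPKM in heart macrophages. Cd207 and Spats2l, named below as like Spic, averaged at most 0.0832 RPKM in each cavity. The direction of these genes was fixed as well.

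**Figure D1:**
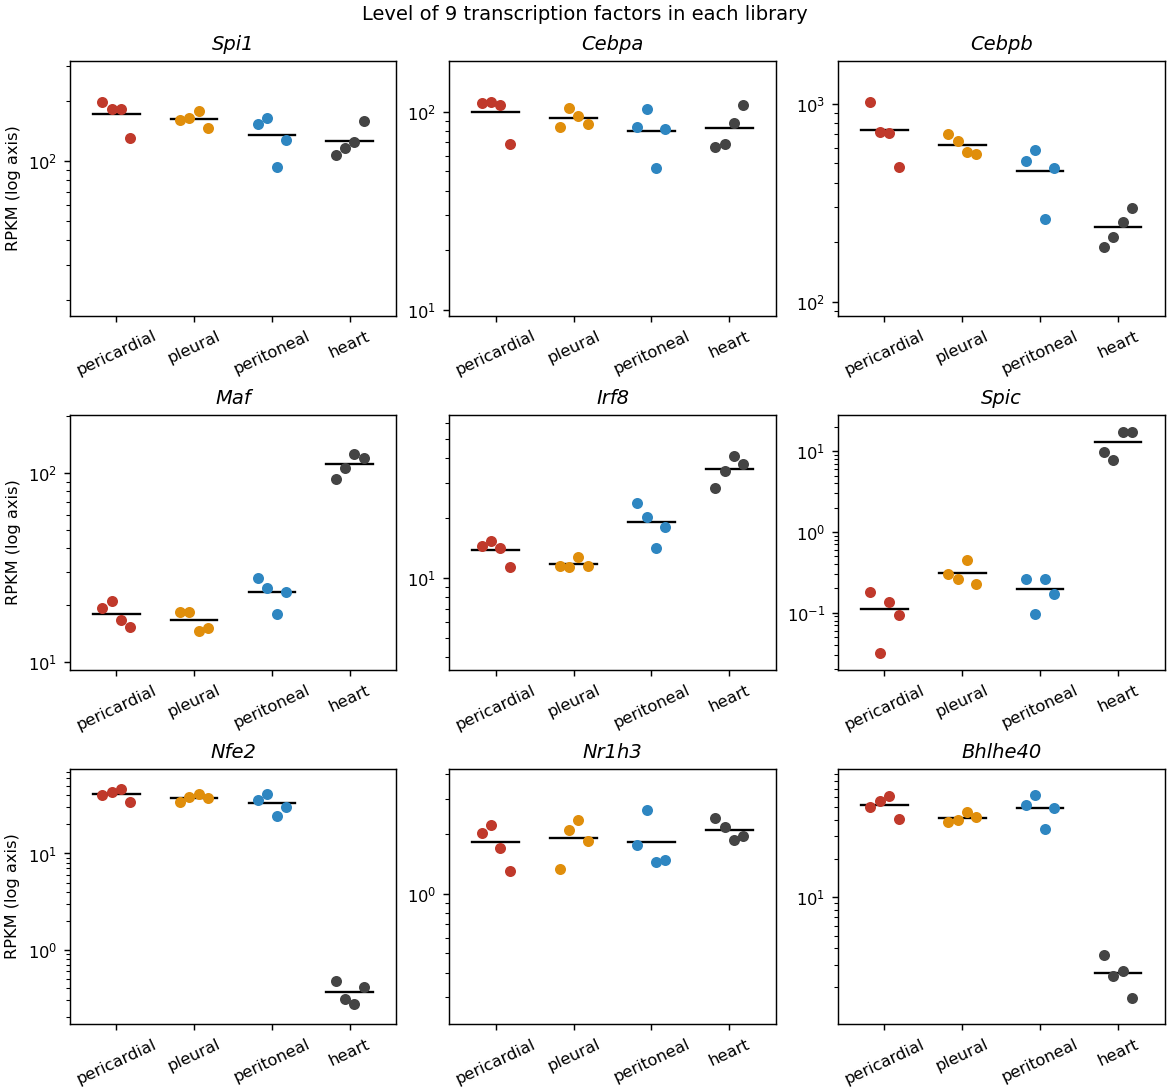
RPKM of each factor on a log axis, in pericardial, pleural, peritoneal and heart macrophages; each point is 1 of 4 libraries and each line is the mean of a population. Nfe2 and Bhlhe40 lie higher in all cavity libraries than in the heart, Maf, Irf8 and Spic lie lower, and Spi1, Cebpa and Nr1h3 overlap.

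**Figure D2:**
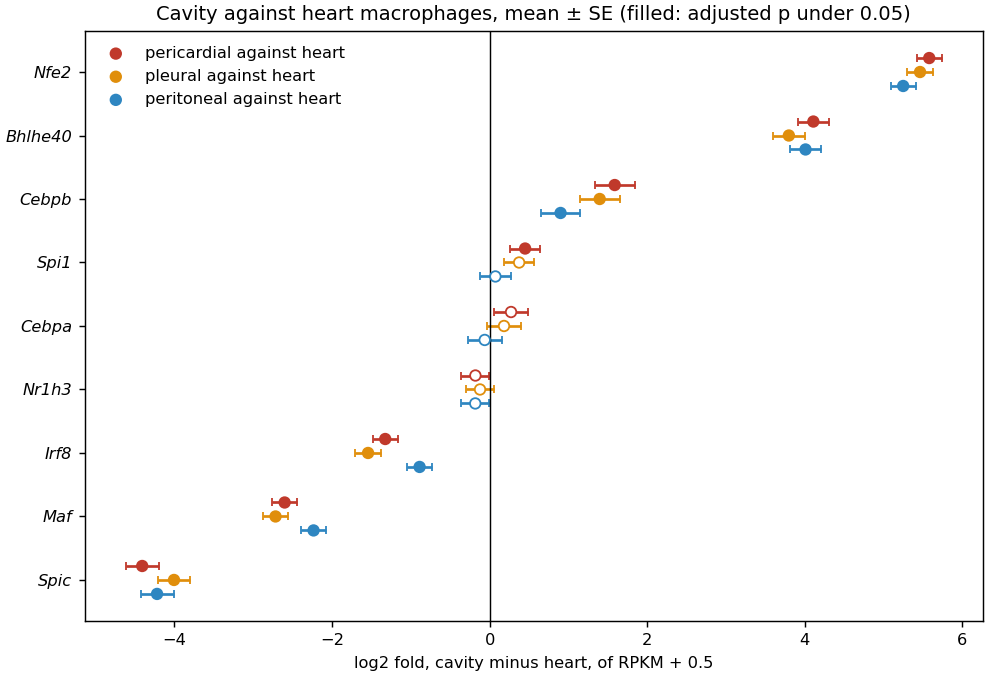
Log2 fold of RPKM + 0.5, cavity minus heart, for each factor, with 1 SE either side; filled points passed an adjusted p of 0.05. Values run from 5.58 for Nfe2 to -4.41 for Spic, both in pericardial against heart macrophages, and Spi1, Cebpa and Nr1h3 lie at most 0.45 from 0.

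Spi1, the shared lineage factor, had a level above that of at least 98.4% of genes in every library. It had 199, 182, 182 and 129.9 RPKM in pericardial, 161, 165, 178 and 147 RPKM in pleural, 154, 165, 92.6 and 127 RPKM in peritoneal, and 107, 116, 124 and 159 RPKM in heart libraries. All 4 populations overlapped, and means ran from 173 ± 29.96 RPKM in pericardial through 163 ± 12.8 in pleural and 135 ± 32.3 in peritoneal to 126 ± 22.5 RPKM in heart macrophages (SD, n = 4 each), with no neighbours in that order apart beyond their spread. Spi1 was called higher in pericardial than in heart macrophages, with a log2 fold of 0.45 ± 0.19 (SE) and an adjusted p of 0.0470 from limma, and it was not called in the pleural (0.37 ± 0.19, adjusted p = 0.102) or peritoneal (0.07 ± 0.19, adjusted p = 0.754) comparison. The pericardial fold was the same, to 2 decimals, as the median of all tested genes, and the call was lost without pericardial libraries 2, 3 or 4 or heart libraries 2, 3 or 4 (adjusted p = 0.0753 to 0.132) and turned to -0.18 with an adjusted p of 0.0361 when all libraries were brought to an equal RPKM total. Without heart library 5 the pleural fold was 0.49 and was called (adjusted p = 0.0407).

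Some ETS relatives of Spi1 differed between cavity and heart. Spib, which encodes Spi-B of B cells and plasmacytoid dendritic cells, averaged 2.49 ± 1.2 RPKM in pericardial and 0.587 ± 0.33 RPKM in heart macrophages (SD, n = 4 each). Its log2 folds were 1.43, 1.48 and 0.97 in pericardial, pleural and peritoneal against heart macrophages, each called, the peritoneal one not at an equal RPKM total (adjusted p = 0.0733). As a sum, 6 markers of B cells moved the same way, from 15.04 to 70.7 RPKM in cavity libraries against 7.65 to 12.97 RPKM in heart libraries. Not each marker did: Cd79b was not called in the peritoneal comparison (log2 fold 0.04, adjusted p = 0.922 from limma). Ebf1, which was not tested, averaged 0.464 RPKM in pericardial and 0.494 RPKM in heart macrophages. The part of these markers in the Spib difference was not tested. Ets2, an effector of Ras and MAP kinase signalling, averaged 9.53 ± 1.5 RPKM in pericardial and 42.5 ± 12 RPKM in heart macrophages, and Etv3, an ETS repressor, 5.53 ± 0.64 and 14.1 ± 4.5 RPKM. Both were lower in all 3 cavities and under all 3 other scalings. Of the 9 ETS relatives, 3 were called higher and 2 lower in pericardial, 1 and 2 in pleural, and 5 and 3 in peritoneal against heart macrophages. Of all tested genes, 53.8%, 47.8% and 48.8% were higher and 14.7%, 13.9% and 14.1% lower in the same comparisons. With RPKM totals made equal, 1 of the 9 was higher and 3 lower in pericardial, 1 and 4 in pleural, and 0 and 3 in peritoneal macrophages. Among all 11234 tested genes these counts were 2694 and 4070 in pericardial, 2709 and 3689 in pleural, and 3470 and 3080 in peritoneal macrophages.

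Of 14 genes known to be activated by PU.1, 8 were higher and 3 lower in each cavity than in the heart, with a median log2 fold of 0.75 in the pericardial comparison against 0.45 for all tested genes. Of all tested genes, 53.8%, 47.8% and 48.8% were higher in pericardial, pleural and peritoneal macrophages, and 14.7%, 13.9% and 14.1% lower. With RPKM totals made equal, 7 of the 14 were higher and 6 lower in pericardial, 6 and 6 in pleural, and 7 and 6 in peritoneal macrophages. The same counts over all 11234 tested genes were 2694 and 4070, 2709 and 3689, and 3470 and 3080. Itgam, the αM integrin chain, averaged 722.9 ± 77.3 RPKM in pericardial and 56.2 ± 8.2 RPKM in heart macrophages, a log2 fold of 3.68. Lyz2, lysozyme, had a log2 fold of 2.78 in the same comparison. Fcgr1, the high-affinity IgG receptor, was lower, with a log2 fold of -2.18. The genes most like Spi1 over the 16 libraries, by Pearson correlation of log2 levels, were Cnot8 (r = 0.970) and Dok2 (r = 0.969). Levels were not rescaled for the correlations given here and for the other factors, so a difference in scale between libraries can raise r. Its part was not tested.

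Irf8 was lower in every cavity than in the heart, with means of 13.8 ± 1.68 RPKM in pericardial, 11.7 ± 0.624 RPKM in pleural, 19.1 ± 4.00 RPKM in peritoneal and 35.5 ± 5.47 RPKM in heart macrophages (SD, n = 4 each). It had 14.4, 15.3, 14.1 and 11.4 RPKM in pericardial, 11.4, 11.4, 12.7 and 11.5 RPKM in pleural, 23.8, 20.2, 14.2 and 18.1 RPKM in peritoneal, and 28.4, 34.6, 41.3 and 37.7 RPKM in heart libraries. Each cavity lay wholly below the heart, and all 4 pleural libraries lay below all 4 peritoneal ones. Against the heart, log2 folds were -1.33 ± 0.16, -1.54 ± 0.16 and -0.89 ± 0.16 (SE) in pericardial, pleural and peritoneal macrophages, with adjusted p of 7.9e-07, 9.9e-08 and 9.8e-05. Irf8 is also high in conventional type 1 dendritic cells, and 6 dendritic cell markers summed to 7.06 to 17.1 RPKM in cavity libraries against 27.8 to 42.0 RPKM in heart libraries. Batf3, a factor of these cells, made up most of the heart sum, averaging 11.6 RPKM in pericardial and 25.8 RPKM in heart macrophages. Of the 3 tested markers Batf3 alone was called, lower in each cavity, and Xcr1 was not called in any cavity. Clec9a averaged 0.360 ± 0.14 RPKM in heart macrophages, and the part of these markers in the Irf8 difference was not tested.

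A factor that multiplies every value of a library drops out of a ratio of 2 genes within it. The ratio of Spi1 to Irf8 was 13.8, 11.9, 12.9 and 11.4 in pericardial, 14.1, 14.5, 14.02 and 12.7 in pleural, 6.47, 8.19, 6.52 and 7.03 in peritoneal, and 3.77, 3.36, 3.01 and 4.21 in heart libraries. Peritoneal macrophages stood between the other cavities and the heart, with no overlap on either side. Its log2 was higher by 0.83 in pericardial and by 0.98 in pleural than in peritoneal macrophages, and by 0.98 in peritoneal than in heart macrophages. Each of these had a p of 0.0286 from an exact permutation test, two-sided, the smallest that 4 against 4 libraries allow, and 0.0396 after Benjamini-Hochberg adjustment over all 18 ratio comparisons computed. The pericardial and pleural ratios overlapped (adjusted p = 0.103, exact permutation test). The pairs of genes were picked after their levels had been seen.

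**Figure D3:**
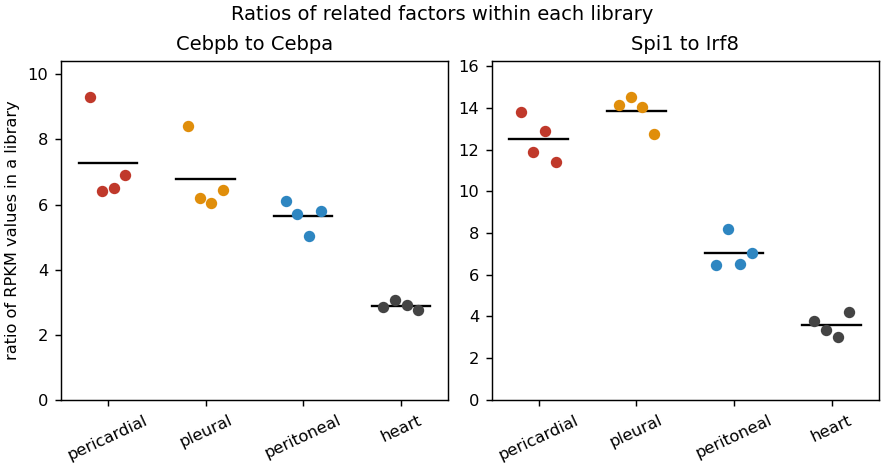
Ratio of the RPKM values of Cebpb to Cebpa and of Spi1 to Irf8 within each library; points are libraries, lines are means of 4, and axes start at 0. The mean ratio of Spi1 to Irf8 was 12.5 for pericardial, 13.8 for pleural, 7.05 for peritoneal and 3.59 for heart macrophages.

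Other IRF factors diverged. Irf2, a repressor of interferon responses, averaged 93.8 ± 14 RPKM in pericardial, 78.8 ± 12 in pleural, 94.9 ± 20 in peritoneal and 30.01 ± 6.4 RPKM in heart macrophages (SD, n = 4 each), higher in all 3 cavities (log2 folds 1.64, 1.39 and 1.65). Irf1, which is induced by interferon, averaged 18.4 ± 5.5, 23.4 ± 14 and 19.3 ± 11 RPKM in the same order of cavities and 89.6 ± 23 RPKM in the heart, lower in all 3 cavities (-2.27, -2.03 and -2.30). Both calls held under all 3 other scalings. Of the 7 tested IRF relatives, Irf2 and Irf1 were the only ones called in the pericardial and pleural comparisons. Irf4 and Irf9 were also lower in peritoneal macrophages. In the pericardial, pleural and peritoneal comparisons 68.5%, 61.7% and 62.9% of all tested genes were called. The IRF calls turned on scaling. Under the equal-total, median-ratio and quantile scalings, 6, 3 and 6 relatives were called lower in pericardial and 5, 4 and 4 in pleural macrophages. Irf4 and Irf9 were among them each time. In the same order, 4070, 2833 and 2865 of all 11234 tested genes were lower in pericardial and 3689, 2774 and 2787 in pleural macrophages. Of 6 tested genes linked to Irf8, 3 were higher and 2 lower in pericardial than in heart macrophages. Of all tested genes, 53.8% were higher and 14.7% lower there. Aif1, a macrophage actin-bundling protein, and Klf4, a zinc finger factor of monocytes, were lower, with log2 folds of -4.28 and -3.35, and Cybb, the NADPH oxidase catalytic subunit, was higher (1.598). Among the genes most like Irf8 was Pik3ap1 (r = 0.982).

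Cebpa was a second factor with overlapping levels in all populations. It had 110.3, 112, 109 and 69.1 RPKM in pericardial, 83.9, 105, 94.8 and 87.0 RPKM in pleural, 84.2, 103, 51.8 and 81.6 RPKM in peritoneal, and 66.6, 69.1, 87.2 and 109 RPKM in heart libraries. Pericardial library 5 and peritoneal library 4 were low, as they were for 8 of the 9 factors within their populations; they also had the lowest RPKM total of theirs, 334803 and 272981. No log2 fold against the heart was called (0.27, 0.18 and -0.06, each ± 0.22 SE; adjusted p = 0.266, 0.479 and 0.809), with 95% intervals of -0.18 to 0.72, -0.27 to 0.64 and -0.52 to 0.39. At an equal RPKM total Cebpa was lower in each cavity, with log2 folds of -0.36, -0.34 and -0.47 and adjusted p of 0.00290, 0.00424 and 0.00034. Most like it were Phc2 (r = 0.966) and Mkrn1 (r = 0.953).

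Cebpb was the most abundant of the 9 factors and was higher in all cavities. It had 1024, 721, 708 and 477 RPKM in pericardial, 707, 649, 573 and 559.5 RPKM in pleural, 513, 586, 261 and 473 RPKM in peritoneal, and 190.2, 212, 253 and 298 RPKM in heart libraries. All pericardial and pleural libraries lay above all heart libraries, and peritoneal library 4 lay among them. Mean RPKM was 3.07 times the heart mean in pericardial, 2.61 times in pleural and 1.92 times in peritoneal macrophages. Log2 folds were 1.59, 1.40 and 0.90, each ± 0.25 (SE), with adjusted p of 2.2e-05, 1.0e-04 and 0.00448. Among the cavities the order was pericardial, pleural, peritoneal, with no pair of cavities called (0.69 ± 0.25, adjusted p = 0.359, for pericardial against peritoneal).

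The 250 bases upstream of the Cebpb start site are shown because this was the most abundant factor and the only one of the 5 with a RefSeq window in which a searched motif was found. The window lies on the plus strand of GRCm38.p6 at chr2:167688665-167688914, directly before a gene without introns at chr2:167688915-167690418. Capitals mark TGACG or its reverse complement, the core of sites for CREB and ATF proteins.
Cebpb: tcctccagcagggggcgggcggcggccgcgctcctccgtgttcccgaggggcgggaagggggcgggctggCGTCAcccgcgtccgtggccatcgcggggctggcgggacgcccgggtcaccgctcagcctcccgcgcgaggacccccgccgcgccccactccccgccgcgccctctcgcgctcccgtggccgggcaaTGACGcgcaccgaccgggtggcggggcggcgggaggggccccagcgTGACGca
The 3 cores lie 180, 53 and 7 bases before the start, and a core occurred in 17.77% of 32851 windows of the same length. The window is 81.6% G and C, above 99.3% of all windows, against a median of 52.4%. RefSeq windows, not all of them outside the GENCODE span of the gene, were also found for Cebpa, Irf8, Spic and Nr1h3. None of them held that core, the PU box GAGGAA (23.25% of windows), the E-box CACGTG (6.02%), the C/EBP site TTGCNNAA (9.56%), the interferon element, GAAA repeated after a gap of 2 bases (2.98%) or the AP-1 site TGANTCA (6.75%) on either strand, and apart from the core neither did that of Cebpb. Matches are letters in a window, not shown sites.

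Within libraries, Cebpb outweighed Cebpa by more in the cavities. The ratio of Cebpb to Cebpa was 9.29, 6.42, 6.52 and 6.90 in pericardial, 8.42, 6.19, 6.05 and 6.43 in pleural, 6.10, 5.70, 5.03 and 5.80 in peritoneal, and 2.85, 3.07, 2.90 and 2.75 in heart libraries. Each cavity lay wholly above the heart, and log2 differences were 1.32, 1.22 and 0.96 (exact permutation p = 0.0286, adjusted p = 0.0396 each). That p is the smallest this test can give here, and the pair was picked after its levels had been seen. Pericardial ratios also lay above all peritoneal ones, with the same p. This log2 difference was 0.35, and 0.23 without pericardial library 2. In the authors' deposited table the 3 Cebpb transcript models hold 1 common value in each population, so those values do not separate the models, which share an mRNA whose alternative translation starts give activating and inhibiting proteins.

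Relatives of the C/EBP factors moved in both directions. Cebpd, induced in acute inflammation, averaged 16.7 ± 3.4 RPKM in pericardial, 15.7 ± 1.5 in pleural, 9.13 ± 2.5 in peritoneal and 49.4 ± 8.5 RPKM in heart macrophages (SD, n = 4 each). It was lower in each cavity (log2 folds -1.54, -1.61 and -2.40) and higher in pericardial than in peritoneal macrophages (0.85, adjusted p = 0.0357). Ddit3, the stress-induced CHOP, was lower in each cavity as well (-1.63, -1.74 and -1.78). Cebpg and Cebpz were called higher in each cavity (0.70 and 0.64 in the pericardial comparison), and neither was called at an equal RPKM total. Of 5 tested genes linked to C/EBPβ, 2 were higher and 2 lower in pericardial than in heart macrophages. Of all tested genes, 53.8% were higher and 14.7% lower there. Arg1, arginase, averaged 12.7 ± 4.4 RPKM in pericardial, 9.90 ± 1.9 in pleural, 167 ± 23 in peritoneal and 0.210 ± 0.081 RPKM in heart macrophages. Arg1 was lower in pericardial than in peritoneal macrophages by a log2 fold of -3.72. Most like Cebpb were Dcun1d5 and Fnta (r = 0.983 each).

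Maf was lower in all cavities. It had 19.2, 20.9, 16.6 and 15.2 RPKM in pericardial, 18.3, 18.3, 14.5 and 15.01 RPKM in pleural, 27.8, 24.7, 17.9 and 23.3 RPKM in peritoneal, and 93.1, 106, 127 and 120.3 RPKM in heart libraries. Every cavity library lay below every heart library. Mean RPKM was 16.1% of the heart mean in pericardial, 14.8% in pleural and 21.0% in peritoneal macrophages, and log2 folds were -2.60, -2.72 and -2.23, each ± 0.16 (SE), with adjusted p of 4.4e-11, 2.3e-11 and 4.5e-10. Most like Maf were Marcks and Pmaip1 (r = 0.99002 and 0.98964).

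Of 9 genes linked to Maf, 6 were lower in each cavity and none was higher. Of all tested genes, 11.8% were lower in all 3 cavities. Gas6, a ligand of TAM receptors, averaged 0.731 ± 0.51 RPKM in pericardial and 171 ± 17 RPKM in heart macrophages, a log2 fold of -7.20. Mrc1, the mannose receptor, had a log2 fold of -5.22 and Folr2, a folate receptor, of -4.70 in the same comparison. The 3 that were not called were the complement genes C1qa, C1qb and C1qc, at 2138 ± 498, 2184 ± 532 and 2021 ± 497 RPKM in pericardial and 1943 ± 467, 1703 ± 399 and 1482 ± 310.1 RPKM in heart macrophages (SD, n = 4 each); they are named because of their values. At an equal RPKM total C1qa and C1qb were called lower in each cavity (-0.50 and -0.28 in the pericardial comparison, adjusted p = 0.000483 and 0.0298), and C1qa also with quantile normalization, where C1qc was called higher in peritoneal macrophages (adjusted p = 0.0429). Mrc1, Folr2 and Lyve1 of this list are also among the 5 resident cardiac macrophage markers.

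Spic was under 0.5 RPKM in every cavity library. It had 0.182, 0.0314, 0.136 and 0.0947 RPKM in pericardial, 0.300, 0.259, 0.453 and 0.226 RPKM in pleural, 0.260, 0.0972, 0.260 and 0.171 RPKM in peritoneal, and 9.87, 7.87, 17.5 and 17.4 RPKM in heart libraries. Heart libraries 4 and 5 were higher than heart libraries 2 and 3. Pericardial, pleural and peritoneal means were 0.845%, 2.35% and 1.497% of the heart mean. Log2 folds of RPKM + 0.5 were -4.41, -4.01 and -4.22, each ± 0.21 (SE), with adjusted p of 5.8e-13, 2.6e-12 and 1.1e-12, and the constant makes them smaller than those ratios. All pericardial libraries lay below all pleural ones, at levels well under the 1 RPKM of the filter, and that difference was not called (-0.40, adjusted p = 0.968).

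The window upstream of the RefSeq start of Spic is shown to set beside that of Cebpb. It lies on the minus strand of GRCm38.p6 at chr10:88683024-88683273, and no searched motif occurred in it, so it has no capitals. GENCODE places Spic at chr10:88674772-88685015, so this window lies inside that span, whereas the Cebpb window lies directly before its gene.
Spic: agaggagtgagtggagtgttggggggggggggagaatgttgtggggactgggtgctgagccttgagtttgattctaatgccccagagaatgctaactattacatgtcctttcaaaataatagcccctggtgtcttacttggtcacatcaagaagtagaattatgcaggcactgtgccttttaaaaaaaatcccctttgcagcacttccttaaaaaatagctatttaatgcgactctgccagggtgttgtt
It is 44.8% G and C, above 23.2% of all windows.

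Of 6 tested genes linked to Spic in iron-recycling macrophages, 4 were lower in each cavity, beside 11.8% of all tested genes. Of these 4, Slc40a1 and Vcam1 passed the filter through the heart alone. Slc40a1, the iron exporter ferroportin, averaged 0.00817 ± 0.012 RPKM in pericardial, 0.0460 ± 0.028 in pleural, 0.0190 ± 0.017 in peritoneal and 19.0 ± 4.4 RPKM in heart macrophages. Cd163, the receptor for haptoglobin-bound hemoglobin, averaged 5.87 ± 1.3 RPKM in pericardial and 189 ± 35 RPKM in heart macrophages (log2 fold -4.90), and Vcam1, an adhesion molecule, 0.108 ± 0.071 and 15.3 ± 4.5 RPKM (-4.66). The fourth was Hmox1, heme oxygenase, at 56.7 ± 7.7 and 407 ± 77 RPKM (-2.82), and Trf, transferrin, was the 1 gene called higher (0.91, not called in the pericardial and pleural comparisons with quantile normalization, adjusted p = 0.972 and 0.793, nor in the pleural one at an equal RPKM total, adjusted p = 0.0969); these are named because of their values. Blvrb, biliverdin reductase, was not called, but was lower in each cavity at an equal RPKM total and with quantile normalization (adjusted p = 4.4e-05 and 8.8e-05 in the pericardial comparison). The 7 markers of red cells summed to 50.7 to 624 RPKM in pericardial, 56.0 to 135 in pleural, 0.738 to 3.05 in peritoneal and 223 to 628 RPKM in heart libraries. Their part in the Spic difference was not tested. Most like Spic were Cd207, langerin, and Spats2l (r = 0.995 each).

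Nfe2 showed the largest log2 fold of RPKM + 0.5 among the 9, although as a ratio of mean RPKM the pericardial difference of Spic was larger. It had 40.5, 43.2, 46.7 and 34.3 RPKM in pericardial, 34.1, 38.2, 41.5 and 37.4 RPKM in pleural, 35.7, 41.6, 24.3 and 30.6 RPKM in peritoneal, and 0.482, 0.310, 0.275 and 0.413 RPKM in heart libraries. Cavity means were 111, 102 and 89.3 times the heart mean in pericardial, pleural and peritoneal macrophages. Log2 folds of RPKM + 0.5 were 5.58, 5.46 and 5.25, each ± 0.16 (SE), with adjusted p of 3.2e-16, 4.7e-16 and 5.7e-16. Most like Nfe2 were Tiam2 (r = 0.999) and Icam2 (r = 0.998), the second a surface marker of large cavity macrophages. For Nfe2, Bhlhe40, Maf and Spic, a shared split between cavity and heart is enough for a high r over all 16 libraries. Likeness within a population was not tested.

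Genes that define megakaryocytes were near 0 in the cavities. Of 9 megakaryocyte and platelet markers only Pf4 and Ppbp passed the filter. Pf4, platelet factor 4, which macrophages also make, averaged 2717 ± 682 RPKM in pericardial, 2383 ± 389 in pleural, 2183 ± 710.4 in peritoneal and 749 ± 235 RPKM in heart macrophages and was higher in each cavity (log2 folds 1.87, 1.71 and 1.54). Ppbp, which passed the filter through the heart alone, had a log2 fold of -3.34 in the pericardial comparison. The defining markers Itga2b, Gp9 and Tubb1 averaged 0.078, 0.091 and 0.031 RPKM in pericardial macrophages and 0.204, 0.348 and 0.226 RPKM in heart macrophages. Of 8 genes linked to Nfe2, 4 did not pass the filter, and none of the 4 tested was called higher in any cavity than in the heart. Among all tested genes 53.8%, 47.8% and 48.8% were higher in pericardial, pleural and peritoneal macrophages. In the same order 0, 3 and 3 of the 4 were called lower, beside 14.7%, 13.9% and 14.1% of all tested genes. At an equal RPKM total 3 were lower in pericardial macrophages. The 3 called lower in pleural and peritoneal macrophages as reported were globin genes. Tbxas1, thromboxane synthase, averaged 64.2 ± 10 RPKM in pericardial and 48.6 ± 11 RPKM in heart macrophages (log2 fold 0.41, not called, and called lower at an equal RPKM total with -0.22 and an adjusted p of 0.0120), and the other 3 were globin genes, which are also among the red cell markers.

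The small Maf proteins, which bind DNA as partners of the p45 subunit, differed from each other. Mafg averaged 20.6 ± 2.3 RPKM in pericardial, 21.2 ± 2.4 in pleural, 28.7 ± 5.2 in peritoneal and 9.996 ± 1.9 RPKM in heart macrophages and was higher in each cavity (log2 folds 1.02, 1.06 and 1.48). Mafk averaged 8.23 ± 1.5 RPKM in pericardial and 11.3 ± 0.75 RPKM in heart macrophages and was lower in each cavity (-0.45, -0.45 and -0.65). Maff averaged 0.0945 ± 0.037 RPKM in pericardial and 13.04 ± 6.96 RPKM in heart macrophages (-4.39), and passed the filter through the heart alone. Mafg and Mafk kept their calls under all 3 other scalings. Of the CNC and Bach relatives, Nfe2l2, the oxidative stress factor NRF2, was lower in each cavity (-0.62, -0.81 and -0.78), and Bach1, a heme-sensing repressor, was higher (0.99, 0.78 and 1.11), although not at an equal RPKM total in the pericardial and pleural comparisons (adjusted p = 0.0848 and 0.213).

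**Figure D4:**
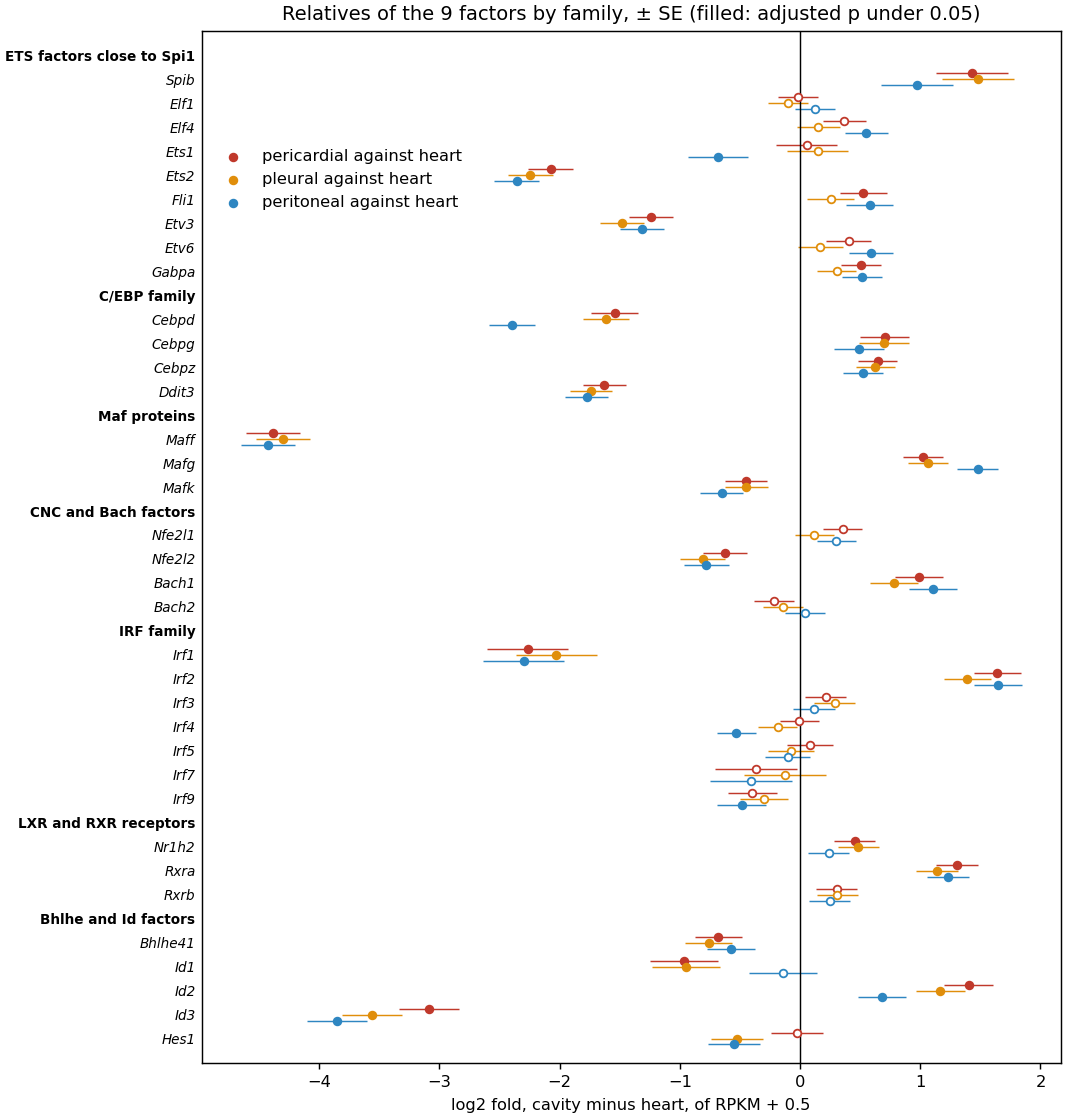
Log2 fold of RPKM + 0.5, cavity minus heart, for tested relatives of the 9 factors, by family, with 1 SE either side; filled points passed an adjusted p of 0.05. Maff and Id3 show the lowest values, and Irf2, Spib, Mafg, Rxra and Id2 lie above 0 in all 3 comparisons.

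Nfe2 was the 1 factor with 6 transcript models in the authors' deposited table, which gives their mean log2 RPKM per population. The model NM_008685 was highest in each cavity, at 5.57 in pericardial, 5.42 in pleural and 5.16 in peritoneal macrophages, and stood at -1.497 in the heart. Models differed between cavities: NM_001302338 stood at -0.37 in pericardial, 0.07 in pleural and 1.18 in peritoneal macrophages, while NM_001302340 stood at 2.85, 2.89 and 1.71 and NM_001302341 at 1.13, 1.16 and 0.07. These are the authors' means without a spread, so the differences were not tested. Linear values of the models summed to 163% to 167% of the gene's mean RPKM in the cavities, against 95.8% to 99.8% for Spi1, Cebpa, Cebpb and Maf and 118% to 119.6% for Irf8; how gene values were made from models is not given in the sources used here.

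**Figure D5:**
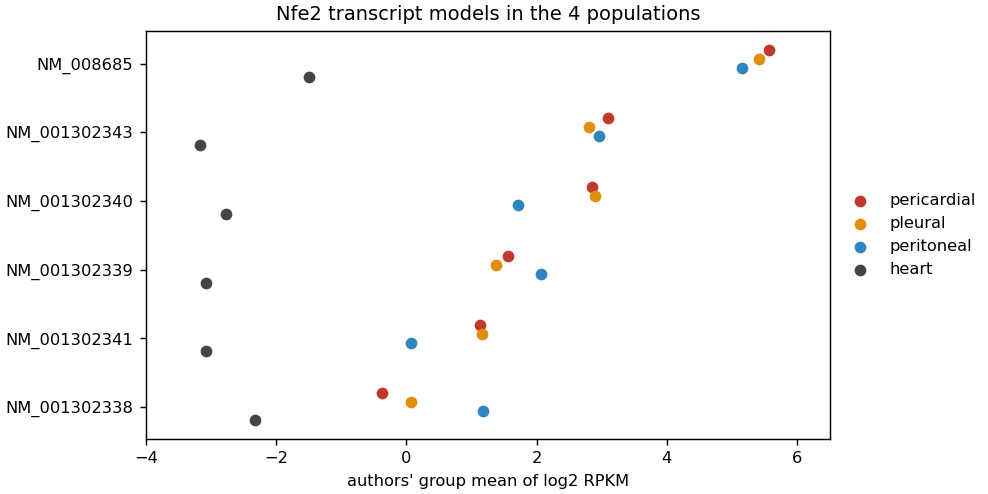
Mean log2 RPKM of 6 Nfe2 transcript models in pericardial, pleural, peritoneal and heart macrophages, from the authors' deposited table, with no spread given. All 6 lie lower in the heart than in any cavity; NM_001302338 is highest in peritoneal macrophages and NM_001302340 lowest there among the cavities.

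Nr1h3 was low in every population, and differences were not detectable. It had 2.03, 2.21, 1.71 and 1.31 RPKM in pericardial, 1.34, 2.0995, 2.36 and 1.85 RPKM in pleural, 1.75, 2.65, 1.44 and 1.47 RPKM in peritoneal, and 2.41, 2.17, 1.85 and 1.96 RPKM in heart libraries. All 4 populations overlapped, and log2 folds against the heart were -0.18, -0.12 and -0.18, each ± 0.18 (SE; adjusted p = 0.370, 0.571 and 0.378), with 95% intervals of -0.55 to 0.19, -0.49 to 0.25 and -0.55 to 0.19. At an equal RPKM total and with median-ratio scaling it was called lower in each cavity, with log2 folds of -0.70 and -0.48 in the pericardial comparison. It lies 68304 bp from Spi1 on chromosome 2, at chr2:91184061-91202834 on the minus strand of GRCm38, against chr2:91082390-91115756 for Spi1. The genes most like it, Kctd21 (r = 0.755) and Particl (r = 0.728), were less alike than those of any other of the 9.

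Nr1h2, which encodes the related LXRβ, was far more abundant per length: it averaged 30.7 ± 4.5 RPKM in pericardial, 31.5 ± 6.0 in pleural, 26.3 ± 4.1 in peritoneal and 22.2 ± 2.8 RPKM in heart macrophages. It was called higher in pericardial and pleural macrophages (0.45 and 0.48), and in neither under any of the 3 other scalings. Rxra, the common partner of both receptors, averaged 25.99 ± 3.9 RPKM in pericardial and 10.1 ± 0.60 RPKM in heart macrophages and was higher in each cavity (1.31, 1.14 and 1.23). Of 14 genes regulated by LXR, 9 were higher and 3 lower in pericardial, 8 and 3 in pleural, and 8 and 1 in peritoneal against heart macrophages. Of all tested genes, 53.8%, 47.8% and 48.8% were higher and 14.7%, 13.9% and 14.1% lower in the same comparisons. Equal RPKM totals gave 7 of the 14 higher and 4 lower in pericardial, 7 and 5 in pleural, and 8 and 4 in peritoneal macrophages. The same counts over all 11234 tested genes were 2694 and 4070, 2709 and 3689, and 3470 and 3080. Apoc2, an activator of lipoprotein lipase, averaged 69.0 ± 31 RPKM in pericardial and 3.02 ± 1.6 RPKM in heart macrophages (log2 fold 4.31), Smpdl3a, a phosphodiesterase, 437 ± 88 and 25.5 ± 5.2 RPKM (4.07), and Fasn, fatty acid synthase, 5.90 ± 0.96 and 1.09 ± 0.14 RPKM (a log2 fold of 2). In pericardial macrophages the LXR genes called lower than in the heart were Abca1, Mylip and Apoe (-1.36, -0.52 and -0.58). The same genes were lower in pleural macrophages (-1.65, -0.67 and -0.72), and Abca1 alone in peritoneal macrophages (-0.67). They are named because of their values. Between the cavities, Apoc1 and Lpl were lower in pericardial than in peritoneal macrophages (-1.35 and -1.06). No difference in Nr1h3 between pericardial and peritoneal macrophages was called.

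Bhlhe40 was 1 of the factors highest in the cavities. It had 50.5, 56.4, 61.1 and 40.4 RPKM in pericardial, 38.8, 39.9, 45.7 and 41.8 RPKM in pleural, 52.0, 61.8, 33.7 and 49.2 RPKM in peritoneal, and 3.56, 2.47, 2.68 and 1.66 RPKM in heart libraries. Every cavity library lay above every heart library. Means were 20.1, 16.02 and 18.98 times the heart mean in pericardial, pleural and peritoneal macrophages, and log2 folds were 4.11, 3.798 and 4.01, each ± 0.20 (SE), with adjusted p of 7.7e-13, 2.6e-12 and 1.1e-12. Bhlhe41, its closest relative, went the other way: it averaged 1.002 ± 0.49 RPKM in pericardial and 1.84 ± 0.37 RPKM in heart macrophages, with log2 folds of -0.68, -0.76 and -0.58, each called. Id2, an inhibitor of helix-loop-helix proteins, was higher in each cavity (1.40, 1.17 and 0.68), and Id3 was lower (-3.09, -3.56 and -3.86). Most like Bhlhe40 were Plscr4 (r = 0.998) and Efnb2 (r = 0.995).

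All 6 proliferation genes linked to Bhlhe40 were higher in each cavity than in the heart, as were 42.1% of all tested genes. Their median log2 folds were 1.01, 0.92 and 1.42 in pericardial, pleural and peritoneal macrophages, against 0.45, 0.36 and 0.38 for all tested genes. In the peritoneal comparison Mki67, the proliferation antigen, averaged 18.6 ± 4.7 RPKM in peritoneal and 5.51 ± 1.0 RPKM in heart macrophages (log2 fold 1.64), Ccnb1, cyclin B1, 7.74 ± 2.6 and 2.18 ± 0.72 RPKM (1.61), and Top2a, a topoisomerase, 23.2 ± 7.2 and 7.80 ± 1.7 RPKM (1.48). At an equal RPKM total 3 of the 6 were called higher in pericardial, 2 in pleural and 6 in peritoneal macrophages. Among all 11234 tested genes 2694, 2709 and 3470 were higher at that setting, in the same order.

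Of 20 other tested macrophage factors, 6 were higher and 8 lower in pericardial, 3 and 9 in pleural, and 5 and 8 in peritoneal against heart macrophages. Of all tested genes, 53.8%, 47.8% and 48.8% were higher and 14.7%, 13.9% and 14.1% lower in the same comparisons. Equal RPKM totals left 2 of the 20 higher and 13 lower in pericardial, 2 and 13 in pleural, and 2 and 12 in peritoneal macrophages. The same counts over all 11234 tested genes were 2694 and 4070, 2709 and 3689, and 3470 and 3080. Gata6, the factor of large cavity macrophages, averaged 40.8 ± 8.5 RPKM in pericardial, 34.1 ± 2.2 in pleural, 41.0 ± 8.7 in peritoneal and 0.841 ± 0.53 RPKM in heart macrophages (log2 folds 4.998, 4.76 and 5.001), higher in each cavity as Nfe2 and Bhlhe40 were. Nr4a1, an orphan receptor that is also an immediate early gene, and Klf4 were lower (-4.68 and -3.35 in the pericardial comparison). Zfp36, counted among the 20 although not a transcription factor, was lower in each cavity (-3.19, -4.11 and -4.50). It is named because it is also 1 of the 12 immediate early genes.

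The cavities differed little from each other in the 9 factors. None of the 9 was called between any 2 cavities, where 0.952% of all tested genes were called for pericardial against peritoneal, 0.588% for pleural against peritoneal and 0.0178% for pericardial against pleural macrophages. At an unadjusted p under 0.05 there were 3 for pericardial against peritoneal (Cebpb, Maf and Irf8), 2 for pleural against peritoneal (Maf and Irf8) and 0 for pericardial against pleural macrophages. How many of all tested genes passed this unadjusted level was not counted, so no excess among the factors can be read from these numbers. Irf8 was lower by a log2 fold of -0.65 ± 0.16 (SE) in pleural than in peritoneal macrophages, with no overlap (adjusted p = 0.0771; groups did not overlap for 3.93% of all tested genes in this comparison, for 3.85% in pericardial against peritoneal and for 2.07% in pericardial against pleural macrophages), and by -0.44 ± 0.16 in pericardial than in peritoneal macrophages (adjusted p = 0.365). Maf had log2 folds of -0.48 ± 0.16 in pleural and -0.37 ± 0.16 in pericardial against peritoneal macrophages (adjusted p = 0.275 and 0.517). These calls turn on scaling: with an equal RPKM total, median-ratio scaling or quantile normalization, Maf and Irf8 were called lower in pericardial and in pleural than in peritoneal macrophages, with adjusted p of 8.6e-05 to 0.0424. Without peritoneal library 4, whose RPKM total was the lowest of the cavity libraries, both were called lower in pleural than in peritoneal macrophages (log2 folds -0.60 and -0.78, adjusted p = 0.0314 and 0.00898).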

How the data were processed

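RNA of sorted macrophages was sequenced in 16 libraries, 4 each of pericardial, pleural, peritoneal and heart macrophages, grouped by their titles. Sorted cells went into TRIzol and NEBNext Ultra II libraries were prepared, per the labels' protocols. The build mm10 and the programs Partek 7.18.0723, TopHat2 2.1.1 and bcl2fastq 2.17.1 are named, per the submitters' processing notes. The sources used here do not give the annotation, the strand setting or the treatment of multiply mapped reads. The authors deposited RPKM values per gene and library, mean log2 RPKM values per transcript and population, and counts of alignments per library. Reads per gene were not used here, so depth per gene is unknown and no counting interval is given.

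The 9 factors and the gene lists were chosen with earlier results of these data known. Genes with at least 1 RPKM in 4 libraries (11234 of 24981) were tested on log2(RPKM + 0.5) with limma 3.58.1 in R 4.3.3, with 1 mean per population, all 16 libraries, a trended variance and Benjamini-Hochberg adjustment over all tested genes; calls have an adjusted p under 0.05. Folds on this scale understate changes of low genes. The procedure was tested on simulated data. Ratios were compared with exact permutation tests. Results for a few genes, 1 of the 3 ratios among them, are not reported here. All 9 factors, every tested family relative, the 2 genes most correlated with each factor, and up to 3 genes of each other list with the largest called folds could be named, and not every such gene is described; others are marked as named for their values. Positions are from GENCODE vM21 (GRCm38, the mm10 assembly) and upstream windows from RefSeq (GRCm38.p6), matched by symbol for 5 of 9 factors. Labels do not say that a replicate number marks a shared animal or day. Deviations of same-numbered pericardial and pleural libraries correlated in all 4 pairs (0.19 to 0.63). Pericardial and pleural libraries of unlike number were not set beside these, so the values do not show a pairing by number. Alternatives changed the constant, filter, scaling, variance trend, groups fitted, replicate block and libraries.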

Additional observations from a re-analysis of the deposited data

Results flagged for a closer look

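In 36 sets of 4 libraries (9 factors in 4 populations), 2 had a library far from the other 3, judged by its gap relative to the range, and chance gives about 1 in 20. Cebpa stood at 69.1 RPKM in pericardial library 5, against 109 to 112 RPKM in the other 3. Irf8 stood at 12.7 RPKM in pleural library 4, against 11.4 to 11.5 RPKM in the other 3.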

How the results depend on the processing

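The 6 factors called the same way in all 3 cavities against the heart were Cebpb, Nfe2, Bhlhe40, Maf, Irf8 and Spic. They kept their direction and call in all 324 recomputed folds, 18 alternatives for each of 3 comparisons. For Spic and Nfe2, which passed the filter through the heart or the cavities alone, the direction was fixed beforehand. With an equal RPKM total, median-ratio scaling or quantile normalization, the median log2 fold of all genes went to -0.12, 0.12 and 0.13 for pericardial, -0.11, 0.08 and 0.10 for pleural, and 0.01, 0.10 and 0.11 for peritoneal against heart macrophages, and the genes called higher and lower in the pericardial comparison numbered 2694 and 4070, 4409 and 2833, and 4489 and 2865, beside 6048 and 1650 as reported. In the same order they numbered 2709 and 3689, 3963 and 2774, and 4290 and 2787 in the pleural comparison (5366 and 1567 as reported) and 3470 and 3080, 4116 and 2689, and 4347 and 2776 in the peritoneal one (5485 and 1586 as reported). Without the filter, 3411, 2997 and 3020 genes were called lower. Against peritoneal macrophages the counts were 112 and 364, 134 and 119, and 164 and 138 in pericardial (59 and 48 as reported) and 111 and 633, 96 and 377, and 179 and 380 in pleural macrophages (24 and 42 as reported, 39 and 451 without peritoneal library 4).

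At an equal RPKM total, factors called lower than in the heart numbered 6 in pericardial, 5 in pleural and 6 in peritoneal macrophages, and in the peritoneal comparison 5 under median-ratio scaling and 5 after quantile normalization, beside 3 as reported. Factors called lower than in peritoneal macrophages numbered 2 (Maf and Irf8) in pericardial and 2 in pleural macrophages with each of the 3 scalings, and 0 to 2 in pleural macrophages with a library left out, 2 without peritoneal library 4.

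Signs turned for low or flat folds. At an equal RPKM total, Spi1 stood at -0.18, -0.15 and -0.34 in pericardial, pleural and peritoneal against heart macrophages, Cebpa at -0.36 and -0.34 in the first pair of these, and in pericardial against pleural macrophages Spi1 stood at -0.032 and Cebpa at -0.019. With quantile normalization, Spi1 stood at -0.060, -0.027 and -0.24 and Cebpa at -0.32 and -0.30 in the same comparisons with the heart, and at -0.033 and -0.025 in pericardial against pleural macrophages. With median-ratio scaling, Cebpa stood at -0.088 and -0.14 in pericardial and pleural and Spi1 at -0.24 in peritoneal against heart macrophages. Against peritoneal macrophages, Nr1h3 stood at -0.17 (equal RPKM total) and -0.034 (median-ratio) in pericardial and at -0.028 (equal RPKM total) in pleural macrophages, and Bhlhe40 at -0.12 (equal RPKM total) and -0.083 (quantile) in pericardial macrophages. With a library left out, signs turned for Nr1h3 in pleural against heart (-0.21 to 0.0025), Spi1 (-0.036 to 0.24) and Cebpa (-0.20 to 0.13) in peritoneal against heart, Nr1h3 (-0.080 to 0.16) and Bhlhe40 (-0.069 to 0.22) in pericardial against peritoneal, and Nr1h3 in pleural against peritoneal (-0.027 to 0.21) and in pericardial against pleural macrophages (-0.18 to 0.054). None of these folds was called as reported except Spi1 in pericardial against heart macrophages, whose call was also lost without the filter (adjusted p = 0.0686), with median-ratio scaling (0.495) and with 2 populations fitted alone (0.0639).

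Outside pericardial against pleural macrophages, no comparison had all its same-numbered pairs correlated above 0.1; over all comparisons 14 of 24 were (-0.63 to 0.63), and 7 of 16 libraries were closest to one with their own number. With a replicate block the Spi1 fold of 0.45 had an adjusted p of 0.0756, no other call among the 9 factors changed, and 5821 genes were called higher and 1593 lower in the pericardial comparison with the heart. Between pericardial and pleural macrophages the block left 1 gene higher and 1 lower, as without it. The cause of these changes was not tested. RPKM values hold no read counts, which limits what can be said of Spic in the cavities and of Nfe2 in the heart.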
